A study of Mus musculus with 4 samples.

Results

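The cells described here are the neutrophils of aged mouse lung, 2706 barcodes of 68675 kept in 4 single-cell libraries. A barcode was counted as a neutrophil when it held at least 10 unique molecular identifiers (UMIs, each a counted RNA molecule) of S100a9 and at least 1 UMI of 2 or more of Retnlg, Csf3r and Cxcr2. It also had to hold at most 1 UMI each of Ccr2, F13a1, Cd3e and Cd79a, and fewer than 10 UMIs of Camp, Ngp and Ltf together, which leaves out immature cells. The members were chosen by the measured counts of these 11 genes, whose values are given as a description with no test. Male C57BL/6 mice that were 19 months old at the start received BPTES, a small-molecule inhibitor of glutamine metabolism, or its vehicle DMSO for 1 month. Each group has 2 libraries, and every library was loaded with a mix of 20000 CD45-negative and 9000 CD45-positive sorted lung cells, so the sort sets the leukocyte fraction. The labels do not say how many mice went into a library, and p-values measure only the spread between these 4 libraries.

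Neutrophils are short-lived granulocytes made in the bone marrow under the growth factor G-CSF, whose receptor is Csf3r. The chemokine receptor Cxcr2 draws them into blood and tissue, and Cxcr4 retains them in marrow and lung and rises as they age. Their granule proteins are made mainly in marrow precursors, while the calcium-binding pair S100a8 and S100a9 stays abundant in mature cells. In lung they are held in the capillary bed and respond quickly to danger signals with interleukin-1 and chemokines.

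The class held 605 and 633 barcodes with BPTES, against 757 and 711 with DMSO. Libraries summed to between 260346570 and 342107092 UMIs over all barcodes. The median neutrophil barcode held 9117 and 9480 UMIs in BPTES mice and 10022 and 9774 in DMSO mice, below the median over all kept barcodes in each library. No barcode sequence was counted as a neutrophil in both libraries of any pair, while each pair shared 65 to 104 kept barcode sequences of any kind. Whether a neutrophil's sequence recurred on another kind of cell was not counted.

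The following genes, which the rule did not use, matched the label, though S100a8 is the partner of the rule gene S100a9. Mmp8, another gene outside the rule, was shared with classical monocytes and is given further below. Levels in this paragraph are CPM, that is, a gene's share of the class's own UMIs scaled to a fixed total, as means ± SD over 4 libraries. S100a8 stood at 25005 ± 4659 CPM in neutrophils and at 11.6 ± 3.94 in barcodes with no Ptprc UMI, which are mostly not leukocytes. Il1r2, the decoy receptor for interleukin-1, stood at 3543 ± 459 against 2.88 ± 0.578 CPM. Hdc, which makes histamine, stood at 2649 ± 26.2 against 21.4 ± 4.39 CPM, and it was at 16.6 ± 2.58 in classical monocytes (Ccr2 and F13a1 type cells). Mmp9, the gelatinase of tertiary granules, stood at 613 ± 105 CPM in neutrophils and at 0.618 ± 0.332 in classical monocytes. Trem1 and Clec4d, which are shared with monocytes, were at 1238 ± 160 and 1857 ± 76.8 CPM in neutrophils and at 187 ± 31.5 and 213 ± 41.6 in classical monocytes.

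The genes of the rule varied between libraries as follows. The median S100a9 count was 299 and 343 UMIs with BPTES, against 494 and 489 with DMSO. Few barcodes lay near the S100a9 limit: 4 and 12 (BPTES) and 4 and 10 (DMSO) barcodes held 10 to 19 UMIs, and 9 and 4 against 3 and 7 further barcodes held 5 to 9 and were left out. Median counts of Csf3r were 20 in every library. Median counts of Cxcr2 were 9 and 11 against 8 and 9, and those of Retnlg, a resistin-like protein of neutrophils, were 23 and 31 against 19 and 28. All 3 partner genes were present in 91.8% to 93.8% of the class. Ngp, a granule gene of immature cells, had a UMI in 3.31% and 4.58% of the class with BPTES and in 8.19% and 10.7% with DMSO.

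RNA of other lung cell types was present in the class and differed between libraries. Alveolar epithelial markers reached 3 or more UMIs in 82.8% and 68.1% of neutrophil barcodes with BPTES and in 21.9% and 56.4% with DMSO. The summed level of those markers was 4414, 3463, 2195 and 273 CPM in BPTES 1, BPTES 2, DMSO 1 and DMSO 2. Fibroblast and muscle markers summed to 662 and 1727 against 1554 and 2088 CPM, and endothelial markers to 900 and 662 against 768 and 1088. Airway epithelial markers summed to 980 and 135 against 29.1 and 104 CPM, with BPTES 1 far above the other libraries. A small part of the class carried most of the alveolar marker RNA in 3 of the 4 libraries: 35, 52, 28 and 41 barcodes with more than 3 times their library's median UMIs held 19.0%, 24.3%, 12.2% and 17.1% of the class's UMIs. Without them, alveolar markers summed to 498 and 344 against 143 and 286 CPM, and fibroblast markers to 427 and 760 against 821 and 833. Calls and list counts below are therefore given for all 2706 barcodes and, where named, for those up to 3 times the median; values of single genes are over all barcodes unless another selection is named. A narrower selection, up to 1.5 times the median, was added after the data were seen; there alveolar markers summed to 574 and 409 against 159 and 347 CPM and fibroblast markers to 279 and 474 against 331 and 406, so the fibroblast ranges overlapped.

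**Figure D1:**
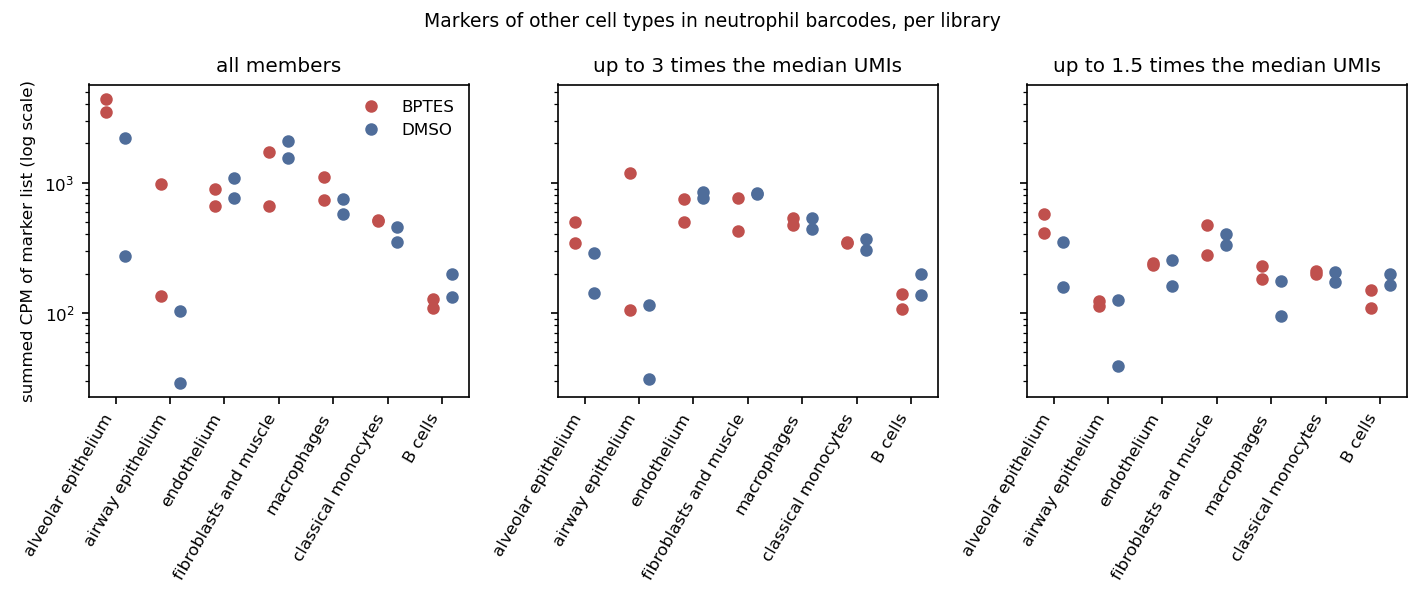
Summed CPM of marker lists of other cell types in neutrophil barcodes (log axis), 1 point per library, for all members, members up to 3 times and members up to 1.5 times the median UMIs. Alveolar epithelial markers span 273 to 4414 CPM over all members and 143 to 498 in the middle panel.

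The first comparison asks which genes of neutrophils differ between BPTES and DMSO mice. Over all 2706 barcodes, 0 of 12949 genes passed an adjusted p of 0.05 in edgeR's quasi-likelihood test (0% in either direction), with a lowest adjusted p of 0.118. Unadjusted p-values under 0.05 were found for 703 genes higher (5.43%) and 895 genes lower with BPTES (6.91%), and DESeq2 called 196 genes, 53 higher and 143 lower. Among barcodes up to 3 times the median, 118 of 11763 genes passed (1%), 18 higher (0.153%) and 100 lower (0.85%). All 11763 genes were fitted together, so the counts of calls include S100a9, which the rule selected on and whose call supports nothing. Of the 100 lower calls, 89 were genes with a higher level in Ptprc-negative barcodes than in neutrophils, 87 of them by over 5 times, among them the stromal genes Nox4 and Ednra. These moved together with the fibroblast markers above, whose part in those calls was not tested. Of the 18 higher calls, 6 had a higher level in Ptprc-negative barcodes than in neutrophils, 1 of them by over 5 times. The share of all 11763 genes with such a level was not counted. In the selection up to 1.5 times the median, 44 of 9154 genes passed (0.481%), 3 higher (0.0328%) and 41 lower (0.448%). The calls up to 3 times the median depended on all 4 libraries: of the 118, 2 were called without BPTES 2 and 0 without DMSO 1, while 50 were among the 129 calls without BPTES 1 and 68 among the 158 without DMSO 2.

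Neutrophil identity genes were mostly lower in the BPTES libraries. Of 26 measured, 23 had a fold change below 0 over all barcodes, none passed the test, and 17 had both BPTES libraries below both DMSO libraries, 65.4% where 22.9% of all genes did. Their median log2 fold change was -0.31, beside 0.00 over all genes. Up to 3 times the median, 4 of 26 fell (S100a8, Wfdc21, Ly6g and G0s2), where 0.85% of all genes did. In that selection 10 of 26 had both BPTES libraries below both DMSO libraries, 38.5% beside 24.6% of all genes, and the list's median was -0.19. The list was drawn up with earlier results of these data known, and markers of alveolar epithelium were higher in the same BPTES libraries; their part in the levels was not tested.

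Upstream sequence is shown for S100a8, its partner S100a9 (a gene of the rule) and Ly6g, which are a pair of abundant calcium-binding genes of the class and its surface marker. Each run is the 250 bases before the transcription start in RefSeq (GRCm38.p6), 5′ to 3′ on the gene's strand. Where a gene had several windows, only the first by position was used, as for Ly6g and Glrx with 2 each. S100a8 lies at chr3:90668821-90669070 on the plus strand, S100a9 at chr3:90695722-90695971 on the minus strand and Ly6g at chr15:75155011-75155260 on the plus strand. Capitals mark the pair of C/EBP half-sites TTNNGCAA or its other strand TTGCNNAA, the only motif found in these 3 windows of the 2 searched (the other was the AP-1 letters TGANTCA, the same on both strands).
S100a8: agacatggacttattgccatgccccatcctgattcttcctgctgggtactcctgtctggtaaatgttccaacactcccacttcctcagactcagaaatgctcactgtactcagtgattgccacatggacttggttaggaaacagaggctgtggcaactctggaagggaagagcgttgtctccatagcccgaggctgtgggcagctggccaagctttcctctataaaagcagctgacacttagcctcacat
S100a9: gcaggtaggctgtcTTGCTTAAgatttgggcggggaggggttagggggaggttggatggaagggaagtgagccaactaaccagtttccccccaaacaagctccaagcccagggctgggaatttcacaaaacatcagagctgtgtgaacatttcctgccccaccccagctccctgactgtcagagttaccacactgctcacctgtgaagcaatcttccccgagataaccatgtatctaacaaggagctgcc
Ly6g: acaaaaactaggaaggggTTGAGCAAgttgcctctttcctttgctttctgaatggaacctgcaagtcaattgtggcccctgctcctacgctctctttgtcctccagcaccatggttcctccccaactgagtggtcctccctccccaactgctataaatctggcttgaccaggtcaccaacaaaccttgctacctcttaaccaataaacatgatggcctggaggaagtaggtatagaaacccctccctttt
C/EBP factors drive granulocyte genes. Of 10 genes asked for, 7 had an entry, and 2 of those 7 held the C/EBP letters and 1, Glrx, the AP-1 letters. Among 27025 promoters of the same length, 9.53% held the C/EBP letters and 6.87% the AP-1 letters. A match describes the letters only.

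From here on, CPM of neutrophil genes in single libraries are scaled by trimmed mean of M-values. Levels in other cells, marker sums, means over libraries and chemokine levels compared between classes are unscaled shares of UMIs. S100a8, which with S100a9 forms the calprotectin dimer, stood at 20248 and 20615 CPM with BPTES and at 31346 and 28591 with DMSO over all barcodes. Both BPTES libraries lay below both DMSO libraries. The log2 fold change was -0.55 (SE 0.088, edgeR adjusted p = 0.157). In barcodes up to 3 times the median it was 23141 and 25460 against 32921 and 32223 CPM, a log2 fold change of -0.42 (SE 0.0521, edgeR adjusted p = 0.0255), which passed. Up to 1.5 times the median the fold change was -0.58 (SE 0.0591, adjusted p = 0.00827). S100a8 was also lower in barcodes outside the class: Ptprc-negative barcodes held 7.10 and 9.72 CPM with BPTES and 15.8 and 13.9 with DMSO, and classical monocytes 13.01 and 13.15 against 30.8 and 27.1. The classical monocytes were picked at under 10 UMIs of S100a9, the partner of S100a8, so their S100a8 values are a description only. The part of RNA outside cells in these small amounts was not tested. Without DMSO 1 the call up to 3 times the median was lost (edgeR adjusted p = 0.121).

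Wfdc21, a small secreted protein of the whey acidic protein family, stood at 377 and 384 CPM with BPTES and at 701 and 660 with DMSO over all barcodes. The groups did not overlap, and the log2 fold change was -0.84 (SE 0.0887, edgeR adjusted p = 0.131). Among barcodes up to 3 times the median, 437 and 471 CPM stood against 736 and 753, a log2 fold change of -0.71 (SE 0.073, edgeR adjusted p = 0.0152). With each barcode thinned to 1500 UMIs, Wfdc21 had a UMI in 35.7% and 38.3% of neutrophils with BPTES and in 52.5% and 52.3% with DMSO, against 0.0517% to 0.156% of Ptprc-negative barcodes. Without thinning the neutrophil shares were 75.9% and 80.4% against 86.5% and 85.5%. Left out in turn, BPTES 2 and DMSO 1 moved the adjusted p above the threshold, to 0.0648 and 0.113.

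Ly6g, the surface protein that antibodies use to mark mouse neutrophils, stood at 18.2 and 24.0 CPM with BPTES and at 74.0 and 51.1 with DMSO. Its level was low in all 4 libraries and the groups did not overlap. The log2 fold change was -1.56 (SE 0.225, edgeR adjusted p = 0.131) over all barcodes and -1.46 (SE 0.218, adjusted p = 0.0364) up to 3 times the median. The share of neutrophils with a Ly6g UMI was 2.99% and 3.34% against 10.1% and 7.10% at 1500 UMIs each, and 11.2% and 16.4% against 32.6% and 26.9% without thinning. No thinned classical monocyte held one. Ly6g belongs to a family of close relatives, so the counting of its reads is uncertain, and its call up to 3 times the median was lost without BPTES 1, BPTES 2 or DMSO 1 (adjusted p = 0.0643, 0.0653 and 0.187).

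G0s2, an inhibitor of the lipase that breaks down stored triglyceride, stood at 2506 and 2244 CPM with BPTES and at 3795 and 3197 with DMSO. The log2 fold change was -0.56 (edgeR adjusted p = 0.203) over all barcodes and -0.42 (SE 0.0638, adjusted p = 0.0372) up to 3 times the median. G0s2 was at 185 ± 17.4 CPM in Ptprc-negative barcodes, so other cells express it too. Its call was lost without BPTES 1, BPTES 2 or DMSO 1 (adjusted p = 0.0658, 0.147 and 0.162).

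**Figure D2:**
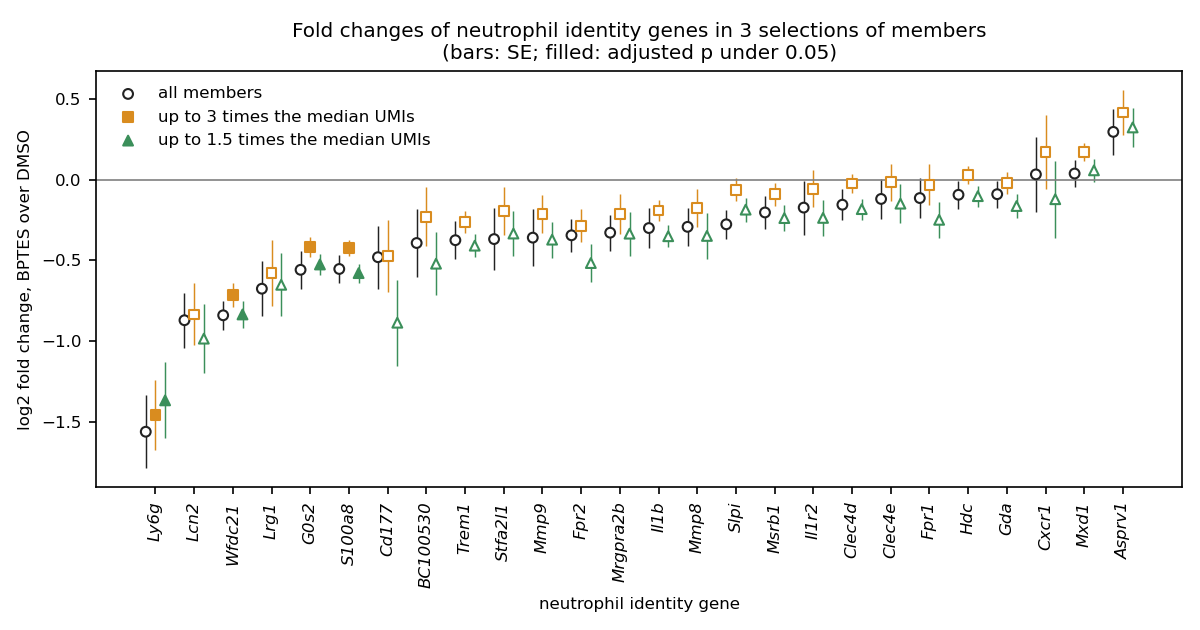
Log2 fold changes (BPTES over DMSO, with SE bars) of 26 neutrophil identity genes in all members, up to 3 times and up to 1.5 times the median UMIs, filled where the edgeR adjusted p is under 0.05. Of the 26, 23 lie below 0 over all members, and S100a8, Wfdc21, Ly6g and G0s2 are the filled ones outside the rule.

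**Figure D3:**
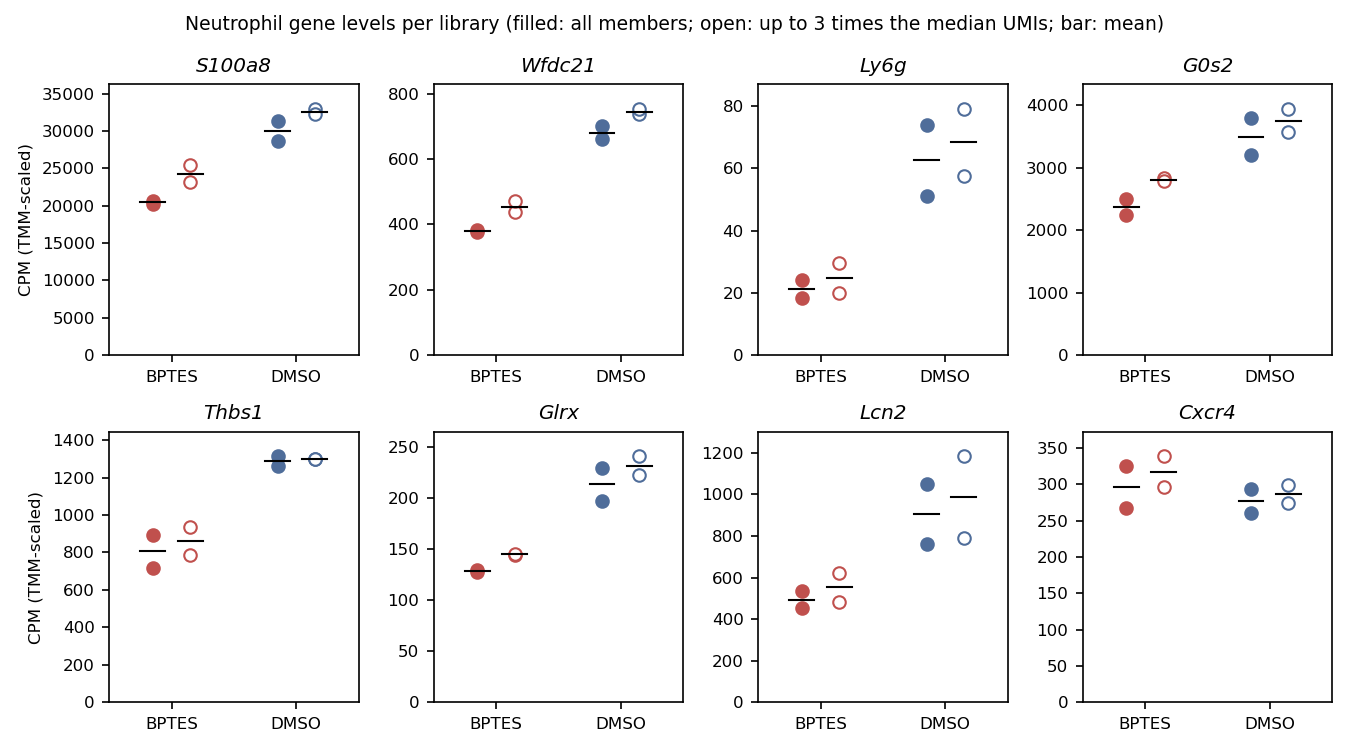
TMM-scaled CPM of 8 genes in each library (points; bars are means of 2 libraries), over all members (filled) and up to 3 times the median UMIs (open). The BPTES libraries lie below the DMSO libraries for S100a8, Wfdc21, Ly6g, G0s2, Thbs1, Glrx and Lcn2, while for Cxcr4 the groups overlap.

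Granule and antimicrobial genes lay lower without passing in most cases. Of 23 measured, 16 were below 0 and 12 had both BPTES libraries below both DMSO libraries (52.2%, against 22.9% of all genes), with a median log2 fold change of -0.18; up to 3 times the median 1, S100a8, passed, and 9 of 23 did not overlap in that direction (39.1%, against 24.6%). Lcn2, which binds bacterial siderophores, stood at 455 and 534 CPM with BPTES and 759 and 1049 with DMSO, a log2 fold change of -0.87 (SE 0.171, edgeR adjusted p = 0.188). Mmp8, the neutrophil collagenase, stood at 221 and 197 against 235 and 277 CPM, and Mmp9 at 606 and 477 against 793 and 595, where the groups overlapped. Among NADPH oxidase genes, 6 of 9 lay above 0 and none passed, and Cybb, the catalytic subunit of the oxidase, stood at 343 and 318 against 190 and 321 CPM.

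Cytokine and chemokine genes gave no call over all barcodes. Of 31 measured, 14 were above and 17 below 0, with a median of -0.14, and 11 had both BPTES libraries below both DMSO libraries (35.5%, against 22.9% of all genes), where 4 had them above (12.9%, against 23%). Among barcodes up to 3 times the median it was 8 of 30 below (26.7%, against 24.6%). Thbs1, thrombospondin 1, passed up to 3 times the median: it stood at 937 and 785 CPM with BPTES and at 1299 and 1298 with DMSO, a log2 fold change of -0.59 (SE 0.0902, edgeR adjusted p = 0.0368). Ptprc-negative barcodes held 662 and 759 against 719 and 840 CPM of Thbs1, and at 1500 UMIs each 20.9% and 23.1% of them had a UMI with BPTES against 26.3% and 25.8% with DMSO; classical monocytes held 1418 and 1855 against 2000 and 1914 CPM. The part of other cells in the Thbs1 call was not tested. Without BPTES 2, DMSO 1 or DMSO 2 it did not pass (adjusted p = 0.102, 0.184 and 0.0638). Il1b, the main interleukin-1 of these cells, stood at 9786 and 8157 against 11824 and 10254 CPM over all barcodes, a log2 fold change of -0.30 (SE 0.124, adjusted p = 0.403). Cxcl2, which recruits further neutrophils, stood at 4666 and 4107 against 6780 and 5518 CPM, with -0.49 (SE 0.128, adjusted p = 0.246); up to 1.5 times the median it passed at -0.59 (adjusted p = 0.0120). Il1rn, the interleukin-1 receptor antagonist, stood at 197 and 204 against 238 and 224 CPM, and did not pass. Tnf (29.7 and 19.2 against 20.8 and 24.8 CPM) and Ptgs2, the inducible cyclooxygenase (771 and 598 against 702 and 660), overlapped between groups.

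Receptors that sense chemoattractants and microbes were lower in 20 of 29 cases, with a median of -0.11, and none passed over all barcodes or up to 3 times the median. Both BPTES libraries lay below both DMSO libraries for 13 of the 29 over all barcodes (44.8%, against 22.9% of all genes), and for 8 of 28 up to 3 times the median (28.6%, against 24.6%), where they lay above for another 8. Cd14, the lipopolysaccharide co-receptor, and Nlrp3, an inflammasome sensor, passed up to 1.5 times the median, with log2 fold changes of -0.62 (SE 0.0693, edgeR adjusted p = 0.0118) and -0.43 (SE 0.0726, adjusted p = 0.0496). Cd14 stood there at 1666 and 1784 CPM with BPTES and at 2680 and 2608 with DMSO.

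Ageing and adhesion markers gave no call. Cxcr4 stood at 324 and 267 against 294 and 261 CPM, with +0.09 (SE 0.128, edgeR adjusted p = 0.811). Itgam, the integrin CD11b, stood at 250 and 247 against 291 and 293 CPM (adjusted p = 0.361), and Icam1, Cd101 and Siglecf gave adjusted p-values of 0.678, 0.922 and 0.901. Of 25 trafficking genes, 11 were above and 14 below 0, with a median of -0.05, and 11 had both BPTES libraries below both DMSO libraries (44%, against 22.9% of all genes). In barcodes up to 3 times the median it was 8 of 24 (33.3%, against 24.6%), with 12 above and 12 below 0.

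The next comparison asks whether the share of interferon-high neutrophils differs. That share varied more within the groups than between their means. The share of neutrophils with 3 or more UMIs of the interferon set at 1500 UMIs each was 33.1% and 19.1% with BPTES and 22.1% and 29.1% with DMSO, a difference of 0.441 percentage points (exact permutation test, two-sided, p = 1, smallest possible 0.333). Thinning left out 3 and 4 shallower barcodes with BPTES and 7 and 7 with DMSO, and without it the difference was -3.90 percentage points. Over the list, 38 of 59 genes were below 0 and 19 had both BPTES libraries below both DMSO libraries, 32.2% beside 22.9% of all genes, with a median of -0.21 and no call. Up to 3 times the median the share was 23.2%, beside 24.6% of all genes. Isg15, a ubiquitin-like interferon product, stood at 320 and 147 CPM with BPTES and at 302 and 343 with DMSO. Ifitm1, an antiviral membrane protein, stood at 865 and 969 against 2758 and 1410 CPM, a log2 fold change of -1.18 (SE 0.293, edgeR adjusted p = 0.238). DMSO 1 was the high library for Ifitm1, whose share of neutrophils with a UMI was 82.1% there and 63.5% in DMSO 2, against 54.3% and 55.0% with BPTES at 1500 UMIs each (95.2%, 86.8%, 81.0% and 81.7% without thinning, in the same order).

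**Figure D4:**
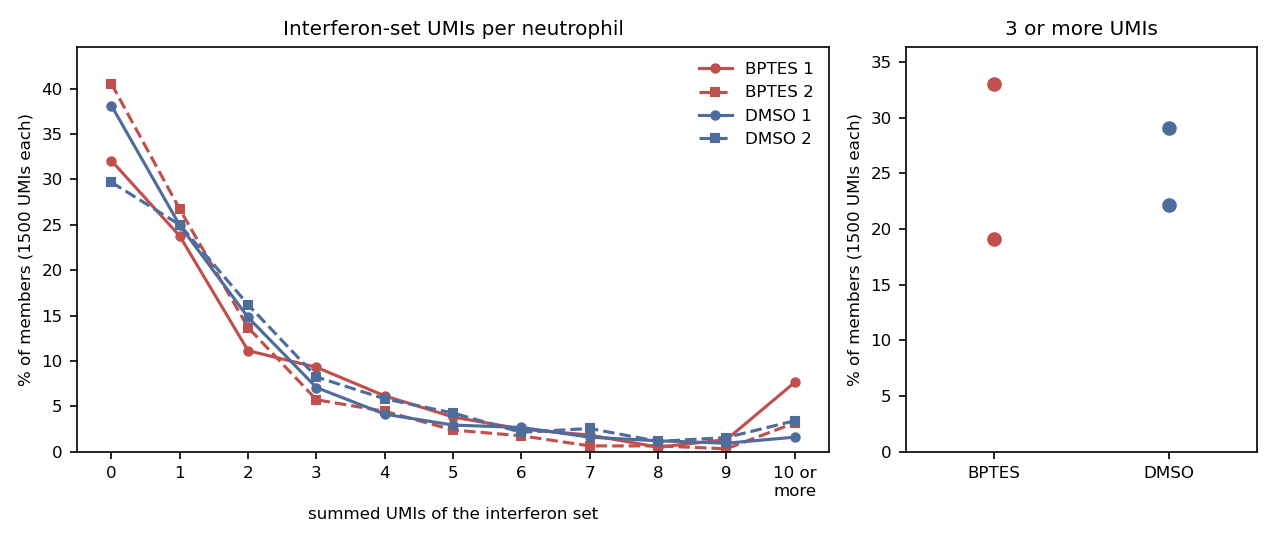
Left, share of neutrophils (% of members, each thinned to 1500 UMIs) by summed UMIs of the interferon set, 1 line per library; right, share with 3 or more such UMIs, 1 point per library. The share spans 19.1% to 33.1% within the BPTES pair and 22.1% to 29.1% within the DMSO pair.

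Genes of glutamine use gave no call. Of 34 measured, 20 were above and 14 below 0, with a median of +0.07; 11 had both BPTES libraries above both DMSO libraries, 32.4%, where 23% of all genes did. Glul, glutamine synthetase, stood at 48.2 and 61.6 against 51.0 and 51.8 CPM, and the glutamine carrier Slc1a5 at 16.0 and 17.6 against 20.4 and 20.2. The carriers Slc38a1 and Slc38a2 overlapped between groups. Gclc, which starts glutathione synthesis from glutamate, stood at 45.0 and 57.4 against 28.2 and 22.1 CPM (log2 fold change +1.03, SE 0.182, edgeR adjusted p = 0.180), and Got1, an aspartate aminotransferase, at 19.3 and 20.9 against 10.8 and 11.7 (+0.84, SE 0.16, adjusted p = 0.184). Up to 3 times the median the Gclc difference was +0.58 and that of Got1 +0.66. Gclc and Got1 were chosen for mention after their values were seen. In the glutamine list, unadjusted edgeR p-values under 0.05 were found for 4 genes higher and 3 lower over all barcodes. Up to 3 times the median it was 2 higher and 4 lower. In that selection 22 of 32 lay above 0, with a median of +0.15 and no call. Both BPTES libraries lay above both DMSO libraries for 10 of the 32 (31.2%, against 24.1% of all genes) and below them for 6 (18.8%, against 24.6%). Of 24 targets of the amino-acid stress factor ATF4, 13 were above and 11 below 0, and of 29 glycolysis and lactate genes 10 and 19; none passed over all barcodes. Both BPTES libraries lay below both DMSO libraries for 13 of the 29 glycolysis and lactate genes over all barcodes (44.8%, against 22.9% of all genes), and for 7 of 28 up to 3 times the median (25%, against 24.6%).

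Stimulus and survival genes gave few calls. Among 36 immediate early and heat shock genes, 2 fell up to 3 times the median, Egr1 and Fosl1, where 0.85% of all genes did. In that fit 22 of the 36 lay above 0, and unadjusted p-values under 0.05 were found for 9 higher and 9 lower. Egr1 stood there at 221 and 181 CPM with BPTES and at 462 and 425 with DMSO, a log2 fold change of -1.14 (SE 0.111, edgeR adjusted p = 0.0152). Its level in Ptprc-negative barcodes was 5.64 times that in neutrophils and was lower with BPTES there too, at 1609 and 1427 against 2320 and 1853 CPM; the part of other cells in the Egr1 call was not tested. Up to 1.5 times the median the Egr1 fold change was -1.09 (edgeR adjusted p = 0.00827). Without BPTES 2 or DMSO 1, Egr1 did not pass (adjusted p = 0.0648 and 0.113). Fosl1, an AP-1 subunit, had a log2 fold change of -0.72 (adjusted p = 0.0328), and its call was lost with any 1 library left out (Fosl1 adjusted p between 0.0538 and 0.165). Mcl1, which keeps neutrophils alive, stood at 1705 and 1448 against 1971 and 1682 CPM, and Bcl2a1b, one of several near-identical copies, at 185 and 189 against 188 and 163; neither passed. Cebpb, a factor of stimulated granulopoiesis, stood at 3629 and 3315 against 4014 and 3760 CPM (adjusted p = 0.521). Of the clock genes, Per1, Arntl and Nr1d1 gave adjusted p-values of 0.480, 0.600 and 0.642.

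A few other genes passed both up to 3 and up to 1.5 times the median and were chosen for mention after their values were seen. Of 118 and 44 calls, 14 were shared, S100a9 of the rule among them. Rhoj and Ccbe1 were also shared, with a level in Ptprc-negative barcodes 10.5 and 10.8 times that in neutrophils. Glrx, a glutaredoxin that reduces glutathionylated proteins, stood at 144 and 145 against 241 and 222 CPM (log2 fold change -0.68, edgeR adjusted p = 0.0271) up to 3 times the median. Rhov, a small GTPase, was -0.70 (edgeR adjusted p = 0.0364), and Lilr4b, a leukocyte receptor with a near-identical copy, -0.50 (edgeR adjusted p = 0.0352). Jade1, a subunit of a histone acetyltransferase complex, was the shared call in the other direction, at 22.6 and 24.5 CPM with BPTES and 11.6 and 11.9 with DMSO (+1.01, adjusted p = 0.0429). The values of Rhov, Lilr4b and Jade1 are also up to 3 times the median. Jade1 stood at 30.2 CPM in Ptprc-negative barcodes against 17.7 in neutrophils, 1.71 times as high, and the part of other cells in its call was not tested. Genes higher up to 3 times the median included Rfx2, a transcription factor, at 29.5 and 32.2 against 16.4 and 16.9 CPM (+0.89, adjusted p = 0.0452), Atp8b4, a lipid flippase (+0.55, adjusted p = 0.0357), and the ribosomal gene Rps27a (+0.43, adjusted p = 0.0357). Rfx2, Atp8b4 and Rps27a did not pass up to 1.5 times the median (adjusted p = 0.224, 0.0716 and 0.0700). The calls of Glrx, Rhov, Lilr4b, Jade1, Rfx2, Atp8b4 and Rps27a were all lost without BPTES 1 (adjusted p between 0.0557 for Glrx and 0.0753 for Rhov), without BPTES 2 (0.0769 for Lilr4b to 0.169 for Rfx2) and without DMSO 1 (0.135 for Glrx to 0.251 for Rfx2). Rhov, Jade1, Rfx2 and Rps27a were also lost without DMSO 2 (adjusted p = 0.0784, 0.0899, 0.0930 and 0.0502). Airway epithelial markers were highest in BPTES 1 in the same selection, at 1196 and 105 against 30.9 and 115 CPM, and their part in the higher calls was not tested.

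A further comparison asks whether neutrophils respond differently from classical monocytes of the same libraries (2302 barcodes). In a joint fit with library as a block, 1 of 14124 genes passed for the difference of the BPTES effects (0.00708%), the chemokine Ccl4, which attracts monocytes and T cells. Ccl4 stood at 42.7 and 49.2 CPM of the class in neutrophils with BPTES and at 59.4 and 93.0 with DMSO, and at 100 and 124 against 30.0 and 54.9 in classical monocytes. The groups did not overlap in either class, with the order turned around. The log2 fold change was -0.81 in neutrophils and +1.41 in monocytes, neither called alone (edgeR adjusted p = 0.238 and 0.223; in monocytes alone 1 of 13396 genes passed, 0.00746%), and the difference was -2.23 (SE 0.143, adjusted p = 0.0286). Up to 3 times the median it was -2.16 (adjusted p = 0.0153), and Ccl4 was then 1 of 20 calls (0.146%). The largest difference of the 20 was that of the chemokine Ccl17 (-7.55, edgeR adjusted p = 0.0333), which was not tested in neutrophils alone. Its log2 fold change in classical monocytes was +6.87 (edgeR adjusted p = 0.0269). Clstn2, Adcy8 and Postn were at +3.32, +4.37 and +4.14 in monocytes, not called there, and at -1.62, -0.19 and -0.20 in neutrophils. The others included the stromal genes Nox4, Ednra, Slit2, Sparcl1 and Timp3, which were higher in Ptprc-negative barcodes than in either class. Nox4 stood at 515 CPM there, at 50.0 in neutrophils up to 3 times the median, at 74.6 in all neutrophils and at 31.3 in classical monocytes. The part of other cells in those calls was not tested. Ccl4 was carried by few cells: at 1500 UMIs each, 3.82% and 4.61% of neutrophils held it with BPTES and 5.33% and 4.97% with DMSO (11.2% and 13.7% against 13.5% and 13.5% without thinning). The unthinned shares overlapped between groups. Its variance over mean between thinned neutrophils was 3.32 and 2.18 with BPTES and 9.51 and 6.44 with DMSO, so the counts were more uneven between cells with DMSO. In classical monocytes the thinned shares were 7.60% and 10.2% against 3.74% and 5.58%, and in Ptprc-negative barcodes at most 0.310%. Its neighbour Ccl3 stood at 50.8 and 67.4 against 23.7 and 42.2 CPM in neutrophils, with the BPTES libraries above, and its difference from monocytes did not pass (-0.82, adjusted p = 0.471).

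**Figure D5:**
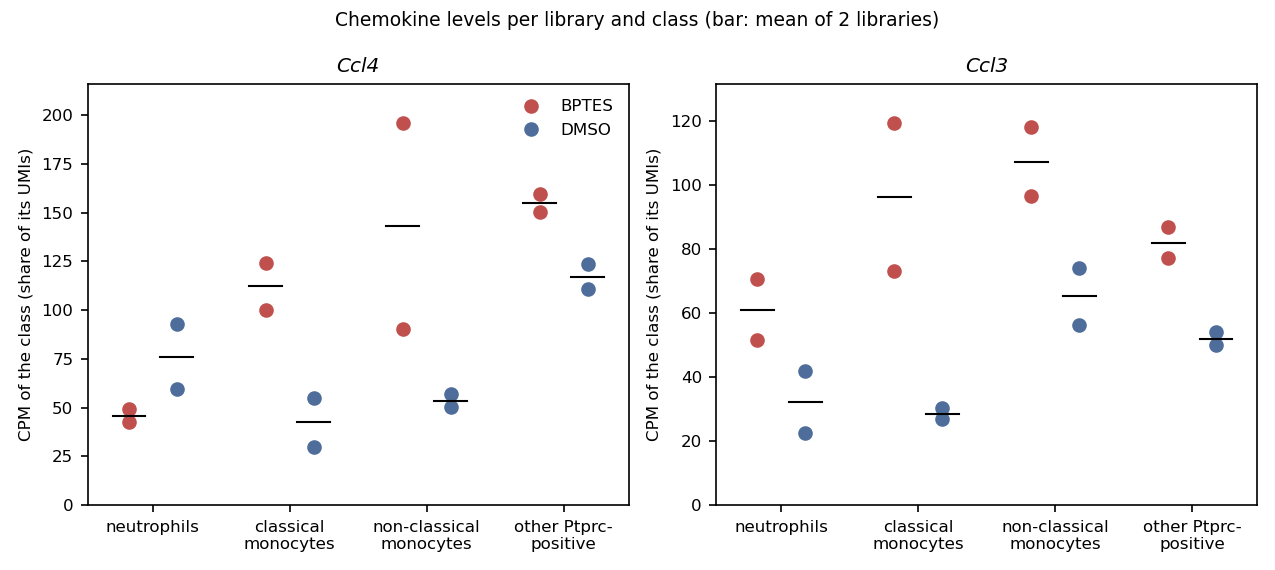
Level of Ccl4 and Ccl3 (CPM of each class's own UMIs, 1 point per library, bars are means) in neutrophils, both monocyte classes and all other Ptprc-positive barcodes. For Ccl4 the BPTES points lie below the DMSO points in neutrophils and above them in classical monocytes, 100 and 124 against 30.0 and 54.9.

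The last comparison asks whether the number of neutrophils differs. They made up 10.8% (95% exact interval 10.0 to 11.7) and 10.1% (9.39 to 10.9) of Ptprc-positive barcodes with BPTES and 13.5% (12.7 to 14.5) and 8.99% (8.37 to 9.64) with DMSO. The DMSO libraries stood on both sides of the BPTES libraries, and the intervals cover counting error only. The mean difference was -0.774 percentage points (exact permutation test over libraries, two-sided, p = 1, smallest possible 0.333). The share counts captured barcodes after a CD45 sort, so it is not a number of cells per lung.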

How the data were processed

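The deposited matrices hold UMI counts per gene and barcode, made with Cell Ranger 8.0.1 on mm10, per the submitters' processing notes, from 10x GEM-X 3' libraries, per the labels. Kept barcodes had 500 or more genes, 1000 or more UMIs and no more than 10% mitochondrial UMIs. Class counts were summed per library and tested with edgeR 4.0.16 (TMM, filterByExpr, quasi-likelihood test, Benjamini-Hochberg adjustment over all genes tested, called at an adjusted p under 0.05), using 2 libraries per group without a replicate block; DESeq2 1.42.0 was an alternative. No doublet caller was run. Some planned results are not reported here. Barcodes with more than 3 times their library's median UMIs were left out in an alternative listed at the outset; the limit of 1.5 times was added after seeing the data. The class, its gene lists and the panel of named genes were chosen with earlier results of these data known. Text names the fixed panel, list members that passed, and some of the interaction calls. Other names were chosen after their values were seen. In a test on simulated data, the fit over all neutrophils covered 12989 genes. It recovered 24 of 50 genes lowered and 30 of 50 raised by 1 on the log2 scale. At 2 it recovered 37 lowered and 50 raised of 50. The fit up to 3 times the median (11764 genes) recovered 30 lowered and 33 raised at 1, and 40 and 50 at 2. Each fit also made 5 false calls. The simulation gave every gene the same biological variation, so this recovery is not the power of the fit on the real counts. Barcodes were thinned at random to 1500 UMIs for shares. Promoter windows came from RefSeq (GRCm38.p6); 7 of 10 genes asked for matched. Alternatives covered normalization, low-count filters, the rule's limits, mitochondrial limits, thinning depth and each library left out.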

Additional observations from a re-analysis of the deposited data

Results flagged for a closer look

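The BPTES effect on Ccl4 differed between neutrophils and classical monocytes of the same libraries by -2.23 on the log2 scale (edgeR interaction test, adjusted p = 0.0286), with both BPTES libraries below both DMSO libraries in neutrophils and above both in monocytes. In the 8 alternatives run for it the difference lay between -2.37 and -2.11, and its adjusted p between 8.58e-16 and 0.0312.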

How the results depend on the processing

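The count of genes called over all neutrophils was 0 with edgeR under another normalization, other filters, a robust prior, other mitochondrial limits and other limits of the rule. It was 196 with DESeq2, 4 without members holding markers of another cell type (31, 52, 174 and 70 left), and 0 to 214 with 1 library left out (95 without BPTES 1, 214 without BPTES 2, 7 without DMSO 1, 0 without DMSO 2). Up to 3 times the median UMIs it was 118, with DESeq2 289, and 0 to 158 with 1 library left out (129 without BPTES 1, 2 without BPTES 2); up to 1.5 times it was 44. The cause of these moves was not tested. With the replicate number as a block, the count was 0 over all neutrophils and 320 up to 3 times the median. Whether the replicate numbers pair the samples cannot be settled with 2 libraries per group. Same-numbered deviations from the group mean correlated at 0.141 over 7288 genes and -0.0281 up to 3 times the median. The mean difference in the neutrophil share within replicate numbers is -0.774 percentage points by arithmetic, so a replicate block is no separate check of it. Leaving out libraries gave differences in the share of -3.05 to 1.5. Calls of the interaction numbered 8 with RLE normalization, 82 with DESeq2, 188 without a filter, 20 up to 3 times the median, and 7 to 19 with 1 library left out. The difference in the interferon-high share ranged from -6.55 to 7.43 with a library left out. Of 732 alternative values for 37 single results, 640 kept direction and side, 61 newly passed and 31 turned direction, in 11 genes none of which was called over all neutrophils; of the 37 only the Ccl4 interaction passed at the outset, so no other could lose a call. Without members holding other markers, log2 fold changes turned to -0.93 (Bcl2a1b), -0.035 (Cd101), -0.41 (Cxcr4), -0.029 (Glul), -0.24 (Icam1), -0.19 (Ptgs2), 0.25 (Slc38a1), 0.22 (Slc38a2) and -0.32 (Tnf). Up to 3 times the median they turned to -0.080 (Nr1d1), 0.035 (Slc38a1) and 0.027 (Slc38a2), and up to 1.5 times to -0.025 (Bcl2a1b), -0.090 (Cxcr4), -0.16 (Glul) and -0.097 (Ptgs2); with the replicate block Ptgs2 was -0.0031. With 1 library left out the ranges were -0.0099 to 0.20 (Bcl2a1b), -0.17 to 0.25 (Cd101), -0.058 to 0.23 (Cxcr4), -0.091 to 0.26 (Glul), -0.19 to 0.18 (Ptgs2), -0.19 to 0.36 (Siglecf), -0.27 to 0.19 (Slc38a1), -0.20 to 0.11 (Slc38a2) and -0.25 to 0.39 (Tnf). With a library left out, 1 group has a single library, assumed to vary like the other. Ly6g rests on few UMIs per cell, and Ccl4 on few cells that hold uneven numbers of UMIs.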

Other observations

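The genes that varied most between single neutrophils, by variance over mean at 1500 UMIs each, were mixed. S100a8, S100a9, Retnlg, Cxcl2, Fth1, Stfa1 and Il1b belong to neutrophils or are broadly expressed, while Sftpc, Mgp, Inmt, Apoe and Sema3c are known from alveolar, stromal or other cells; Gm42418 overlaps ribosomal RNA, and Macf1 and Cp complete the first 15. Sftpc had a mean ratio of 79.8 over all members and 1.19 up to 3 times the median UMIs, where the median of all 3113 genes was 1.17 over all members. By library the Sftpc ratio over all members was 117 and 70.5 with BPTES, 130 in DMSO 1 and only 1.23 in DMSO 2. S100a8 changed little, from 18.9 to 18.0. The heat shock genes Hspa8 and Hsph1, chosen for mention after their values were seen, were highest in BPTES 2: Hspa8 stood at 348 and 523 CPM with BPTES and 267 and 309 with DMSO, and Hsph1 at 11.6 and 45.0 against 4.15 and 7.06, neither passing the test (edgeR adjusted p = 0.318 and 0.260).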
